A study of Gallus gallus with 88 samples.

Results

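The genes described here are GLI3, GLI2, PTCH1 and SMO, 4 members of the Hedgehog pathway out of 11528 genes that had a probe set with a single gene symbol on the chicken gene array. They were taken by symbol because GLI3 had been seen to be lower in hind muscle of embryos kept warm during ED7–10, so that contrast is given below as a description without a test. Each member had 1 probe set, 15459262 for GLI3, 15534013 for GLI2, 15563858 for PTCH1 and 15384176 for SMO. By the GRCg7b gene table, GLI3 lies on chromosome 2, GLI2 on chromosome 7, SMO on chromosome 1 and PTCH1 on the sex chromosome Z.

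Hedgehog ligands are secreted proteins that bind the membrane receptor PTCH1, which otherwise holds the membrane protein SMO inactive. Once SMO is released it acts through the primary cilium on the zinc finger factors GLI2, which works mainly as an activator, and GLI3, which is mainly processed to a repressor when no ligand is bound. In vertebrate limbs the pathway is known for patterning along the thumb to little finger axis, and near the neural tube for its role in the early muscle lineage, and PTCH1 is itself a target of the pathway.

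Hind muscle (M. gastrocnemius) of a commercial broiler line was measured with 1 array per animal, 8 animals per group and 88 arrays in all. C10, H10 and L10 embryos were kept at 37.8, 38.8 and 36.8 °C from ED7 to ED10 and sampled at ED10, while C13, H13 and L13 embryos were kept at the same 3 temperatures from ED10 to ED13 and sampled at ED13. At D35, 8 chickens of each warm and cool treatment were sampled, beside 8 controls of which 2 had the C10 and 6 the C13 label. All eggs were at 37.8 °C outside the treatment window. By the methods of the study the warm treatments also had a higher relative humidity, so temperature and humidity cannot be told apart in H10 or H13, and animals were sexed and balanced by sex, though the labels do not give the sex of an animal.

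All values are log2 signals as deposited, and embryos and D35 chickens were not compared with each other since their arrays differ in median level (7.90 to 8.29 in embryos, 6.64 to 6.98 at D35). The array holds 23 probe sets for background, and the 95th percentile of their means served as background level, 9.71 in embryos and 9.49 at D35. It is strict, as the median of every array lies under it. The muscle markers were led by ACTA1, skeletal muscle actin (mean 13.71 in embryos, 14.33 at D35), and TNNT3, a fast troponin (11.47 and 13.39), and 7 of 8 measured muscle markers lay above the background level in embryos and 6 of 8 at D35. Embryo samples also carried signal of other markers. All 11 fibroblast and connective tissue markers lay above the background level, led by COL1A1 (13.74) and COL1A2 (12.97). So did 3 of 3 tendon, 2 of 2 erythrocyte, 2 of 14 cartilage and 2 of 4 endothelium markers, and no nerve or adipocyte marker. These counts rest on means over the embryos of both days. The mean of the 2 adipocyte markers was 9.91 in C13, 10.32 in H13 and 9.83 in L13, above the background level. It was 7.27 in C10, 7.44 in H10 and 7.05 in L10. Of 8 epidermis markers 2 did, DSP and EPCAM. The mean of the 8 epidermis markers ran from 5.84 to 10.90 across embryo arrays and from 5.35 to 5.96 at D35. No marker listed was at 0 on any array. The embryos were split here into 2 number series, between animal numbers 42 and 51 of the labels. Their numbers ascend without a restart. The first series holds all warm and the second all cool embryos, with 4 controls of each day in each. At D35 the numbers restart once in the order of the arrays. There the first series holds all warm chickens with 2 C10 and 2 C13 controls. The second holds all cool chickens with 4 C13 controls. The main comparisons used the controls of both series. The meaning of these series is not stated. By the methods of the study each group was run in 2 repeated batches, and how the series relate to these is not given.

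In embryos the mean signals of GLI3 (10.97), GLI2 (10.59) and SMO (10.84) lay above the background level and that of PTCH1 (8.97) below it. At D35 SMO alone was above, at 10.02, while GLI3 (8.01), GLI2 (7.05) and PTCH1 (6.91) were below, so small differences of these genes may be limited by signal there. Levels of different genes on an array depend on their probes and are not compared.

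**Figure D1:**
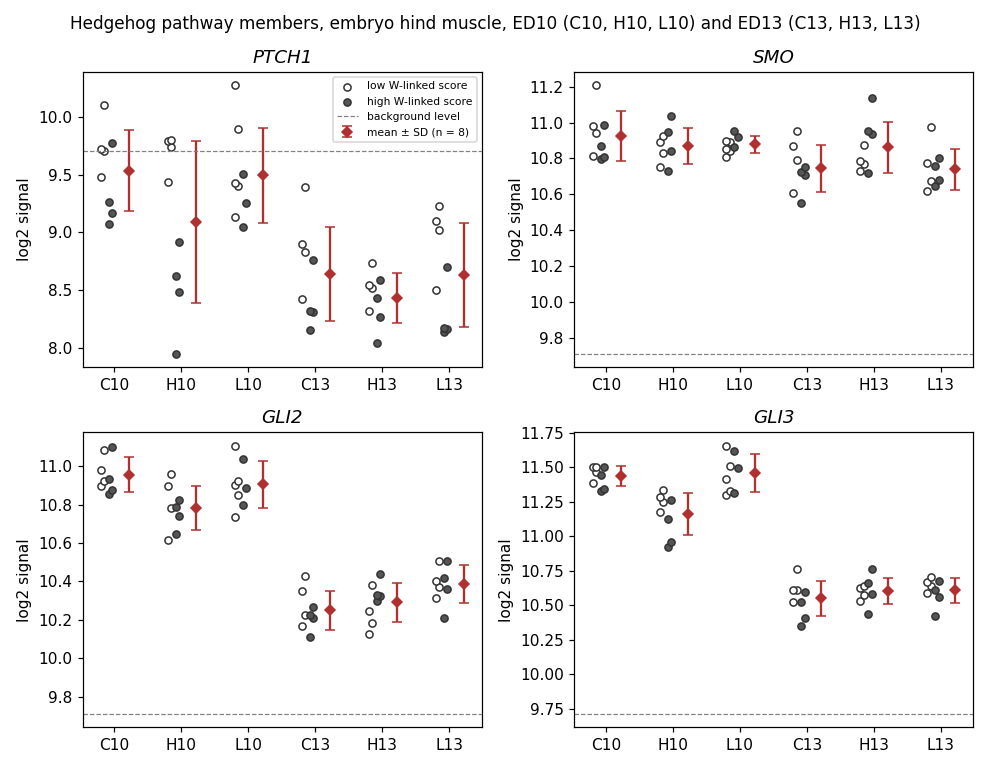
Log2 signal of PTCH1, SMO, GLI2 and GLI3 in embryo hind muscle by group (x axis). Circles are single embryos, filled where the W-linked score is high, red diamonds with bars are the mean ± SD of 8 embryos, and the dashed line is the background level of 9.71. GLI3 and GLI2 of all ED13 groups lie below all ED10 groups, and the H10 embryos lie low among the ED10 groups.

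The largest differences of the members were between control embryos of the 2 days. From C10 to C13 all 4 members were lower, PTCH1, GLI3 and GLI2 by 0.71 to 0.90 on the log2 scale and SMO by 0.18. Of all probe sets 16.4% were called lower in this comparison and 28.2% in either direction (limma, Benjamini-Hochberg adjusted p under 0.05), so a fall with age was common. As in any whole tissue, fewer cells of a type and less RNA per cell cannot be told apart. The C10 embryos also enter the contrast by which GLI3 was noticed. That choice favours high GLI3 values in C10, so the GLI3 difference given here may be overstated and its p-values too small.

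PTCH1, the receptor, ran from 9.07 over a median of 9.59 to 10.11 in C10 and from 8.16 over 8.59 to 9.39 in C13. The groups overlapped in part, and all 8 C13 embryos lay under the C10 mean. The difference was -0.90 ± 0.22 (standard error, limma adjusted p = 0.00128), and the exact two-sided permutation p over 8 against 8 embryos was 0.000777. SMO, the signal transducer beneath it, ran from 10.79 over 10.91 to 11.21 in C10 and from 10.55 over 10.74 to 10.95 in C13. Its groups overlapped widely, with 7 of 8 C13 embryos under the C10 mean. The difference of -0.18 ± 0.061 was past the threshold (limma adjusted p = 0.0209, exact permutation p = 0.0149), but it was not without C10 embryo 65 (-0.14, limma adjusted p = 0.0735) or without C13 embryo 91 (-0.15, limma adjusted p = 0.0600).

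GLI2 ran from 10.86 over 10.93 to 11.10 in C10 and from 10.11 over 10.23 to 10.43 in C13. GLI3 ran from 11.33 over 11.45 to 11.50 in C10 and from 10.35 over 10.56 to 10.76 in C13. For both factors the lowest C10 embryo lay above the highest C13 embryo, which held for 8.29% of all probe sets. The difference was -0.71 ± 0.056 for GLI2 (limma adjusted p = 1.82e-13) and -0.89 ± 0.06 for GLI3 (limma adjusted p = 5.23e-15). The exact permutation p was 0.000155 for each, the smallest that 8 against 8 embryos can give. Within the first and the second number series the difference was -0.81 and -0.96 for GLI3, -0.69 and -0.72 for GLI2, -0.88 and -0.92 for PTCH1, and -0.11 and -0.25 for SMO, with 4 against 4 embryos each. In the first series PTCH1 (limma adjusted p = 0.0698) and SMO (limma adjusted p = 0.462) did not pass the threshold.

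Of the Hedgehog pathway list, 47 genes other than the members had a probe set with 1 symbol. In the controls 21 of them were called lower and 2 higher at ED13. Of all probe sets 16.4% were called lower and 28.2% either way. The median difference was -0.19 against -0.023 over all probe sets. The ligands SHH and IHH themselves were among the genes without such a probe set, so they are not described here. DISP1, which releases the ligands from cells, was the 1 of 4 measured genes of ligand release that passed the test (-0.41 ± 0.13, limma adjusted p = 0.0111). Of 4 receptor partners 2 were called lower, BOC (-0.83 ± 0.088, limma adjusted p = 4.24e-10), a co-receptor that binds the ligand, and LRP2 (-0.32 ± 0.12, limma adjusted p = 0.0476).

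Among 12 further GLI factors and regulators, 5 were called lower and 1 higher, beside 16.4% of all probe sets called lower and 28.2% either way. GLI1, an activator that is itself a target of the pathway, was lower by 0.69 (log2 difference -0.69 ± 0.12, limma adjusted p = 2.39e-05). It ran from 8.94 over 9.03 to 9.51 in C10 and from 8.20 over 8.40 to 8.69 in C13, below the background level. These groups did not overlap, which held for 8.29% of all probe sets. CUL3, part of a ubiquitin ligase that acts on GLI proteins, was higher (0.52 ± 0.090, limma adjusted p = 1.36e-05). Of 13 parts of the primary cilium 6 were called lower and none higher, among them IFT122 (-0.48 ± 0.094, limma adjusted p = 7.03e-05) of the transport machinery inside the cilium.

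Of 16 known target genes 8 were called lower and 1 higher. GLI1, counted above as well, is among the lower ones, and HHIP, which was not called, stands in both the receptor and the target list. The largest differences were in NKX3-2, a factor of the early skeleton (-1.82 ± 0.55, limma adjusted p = 0.00942), GREM1, a secreted inhibitor of BMP proteins (-1.23 ± 0.22, limma adjusted p = 2.13e-05), SFRP1, a secreted modulator of WNT signals (-1.02 ± 0.082, limma adjusted p = 2.87e-13), and the limb patterning gene HOXD12 (-0.75 ± 0.20, limma adjusted p = 0.00378). The target JAG2, a Notch ligand, was higher (0.63 ± 0.10, limma adjusted p = 3.40e-06). The counts stand beside 16.4% of all probe sets called lower and 28.2% called either way. With dim probe sets left out, the share called either way was 50.3%. Markers of other cell types moved over the same days. Of 14 cartilage markers 8 were called lower and 1 higher, of 11 fibroblast and connective tissue markers 7 lower and 4 higher, and of 8 muscle markers 5 were called higher. Endothelium (3 of 4) and adipocyte markers (2 of 2) were called higher, nerve (2 of 2), tendon (1 of 3) and erythrocyte markers (1 of 2) lower, and no epidermis marker of 8 was called. OSR1 stands in both the fibroblast and the target list. Their part in the differences of the Hedgehog genes was not tested.

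**Figure D2:**
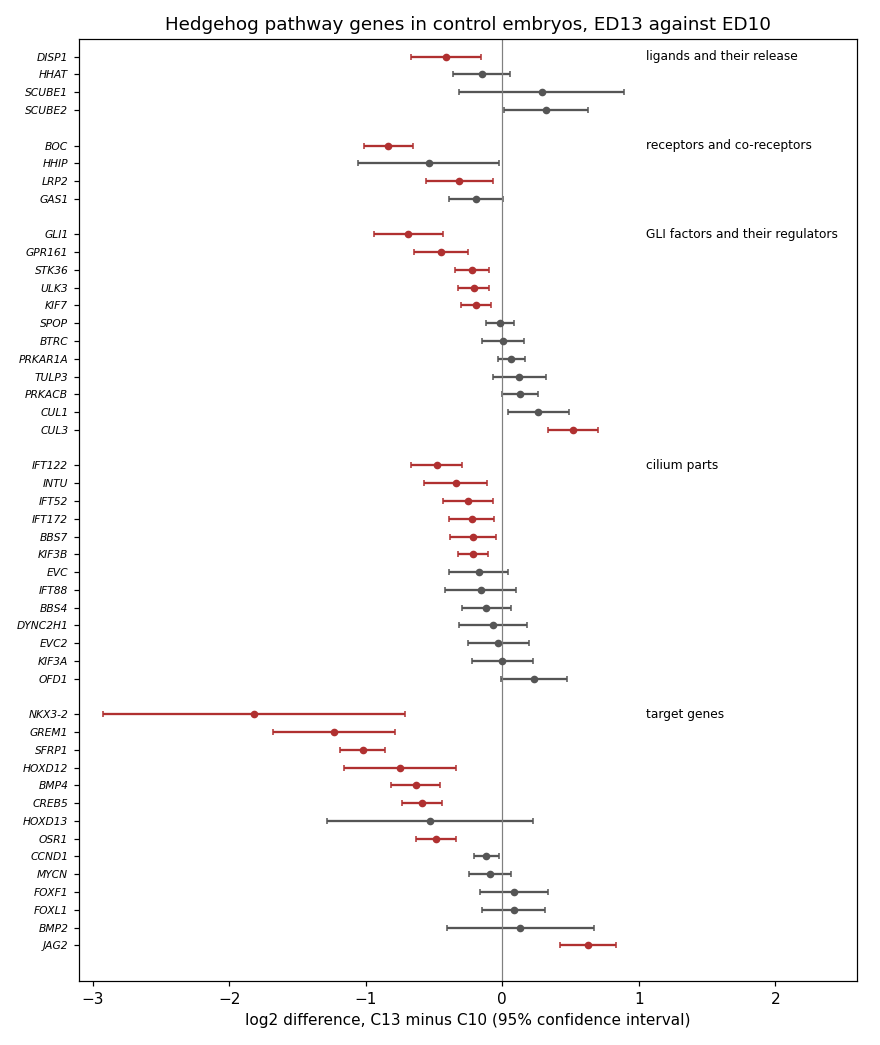
Log2 difference between C13 and C10 embryos with its 95% confidence interval (x axis) for the 47 measured pathway genes other than the members, grouped by role, with red marking an adjusted p under 0.05. Most red points lie left of 0, and JAG2 and CUL3 are the 2 red points to the right.

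High temperature during ED7–10 is the contrast by which the members were chosen, and its values stand without a test. GLI3 ran from 10.92 over 11.21 to 11.34 in H10 against 11.33 over 11.45 to 11.50 in C10. All 8 H10 embryos lay under the C10 mean and 7 of them under the lowest C10 embryo. The mean difference was -0.27, about 0.829 times the C10 level. In no H10 embryo was GLI3 as low as in a C13 embryo, the highest of which reached 10.76.

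GLI2 ran from 10.62 over 10.78 to 10.96 in H10, with 6 of 8 embryos under the lowest C10 embryo of 10.86, and its mean difference was -0.17. SMO ran from 10.73 over 10.87 to 11.04 and differed by -0.056 on average, with 6 of 8 under the C10 mean. Against the C10 embryos of the own number series SMO was at 0.0045, GLI3 at -0.27 and GLI2 at -0.18. PTCH1 spread most, from 7.95 over 9.18 to 9.81 in H10, with an SD of 0.71 against 0.36 in C10. Its mean difference of -0.45 became -0.28 when H10 embryo 9 was left out and also -0.28 with the epidermis marker mean in the model.

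In this contrast 0.13% of all probe sets were called, 0.0628% of all as lower, and the groups did not overlap for 0.0869%. GLI3 was chosen as 1 of those lower probe sets, so nothing is read from its place among them. Its difference lay between -0.30 and -0.24 in every alternative run, including those without 1 array. These runs reuse the arrays by which GLI3 was chosen, so they are no test. Its call was lost in 10 of the 16 runs without 1 array and under other alternatives given below. Of the 47 other pathway genes 39 lay below 0, with 59.3% of all probe sets below 0 and a median of -0.065 against -0.028. Some of these genes vary with GLI3 between embryos, and this contrast chose GLI3, so the count is no test. After quantile normalization 36 of all 51 pathway genes lay below 0, down from 43. These 2 counts include the 4 members, which were chosen through this contrast. The share of all probe sets below 0 went from 59.3% to 49.8%. The most negative were NKX3-2 (-0.78), HHIP (-0.43), a secreted binder of the ligands, HOXD13 (-0.40), GREM1 (-0.39), GLI1 (-0.32) and BOC (-0.31), which were taken by size after their values were seen. For NKX3-2 only 4 of 8 H10 embryos lay below the C10 mean. The number was 6 for HHIP and GREM1, 7 for HOXD13 and GLI1 and 8 for BOC.

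No cell type marker was called in the same contrast, and 59.3% of all probe sets lay below 0. All 8 epidermis markers lay below 0 (median -0.66), as did 13 of 14 cartilage markers (median -0.21). All 8 muscle markers lay above 0 (median 0.078). Below 0 also lay 8 of 11 fibroblast and connective tissue, 2 of 3 tendon and 3 of 4 endothelium markers. So did the 2 nerve and the 2 erythrocyte markers measured, while the 2 adipocyte markers lay above 0. The epidermis marker mean of an array ran from 5.84 over 8.84 to 9.91 in H10 and from 8.60 over 9.31 to 10.14 in C10. H10 embryo 9 had the lowest epidermis mean of all embryos and also the lowest PTCH1 and GLI3 of its group. With the epidermis mean in the model, the GLI3 difference was -0.26 and the GLI2 difference -0.17, against -0.27 and -0.17 without it. GLI3 was no longer called in that model. A part of epidermis in these differences was not tested.

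In the other embryo contrasts no member and no other pathway gene was called. Low temperature during ED7–10 (L10), which shares the C10 embryos with H10, gave no call among all probe sets by limma's adjusted p, and 4.3% of them reached 0.05 before adjustment. GLI3 ran from 11.30 over 11.46 to 11.66 in L10, around the C10 values, with a difference of 0.022 (95% confidence interval -0.10 to 0.14). The intervals of GLI2 (-0.16 to 0.061) and SMO (-0.17 to 0.077) were of similar width, and that of PTCH1 was -0.49 to 0.40. Of the other pathway genes CUL3 (0.18 ± 0.090) and HOXD12 (0.37 ± 0.20) came nearest to the threshold (limma adjusted p = 0.951 for each).

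After high temperature during ED10–13 (H13), GLI3 ran from 10.44 over 10.60 to 10.76 and lay within the range of C13. Its difference was 0.053 (95% confidence interval -0.069 to 0.17). SMO had the largest difference relative to its error, 0.12 ± 0.061 (limma adjusted p = 0.496, exact permutation p = 0.101), with 6 of 8 embryos above the C13 mean. PTCH1 differed by -0.21 (interval -0.65 to 0.23). In the same contrast all 8 epidermis markers lay below 0 with a median of -1.03, but none was called, and a link to PTCH1 was not tested. Of all probe sets 0.00966% were called. The pathway genes nearest to the threshold were CREB5 (0.23 ± 0.072, above the C13 mean in 8 of 8 embryos, limma adjusted p = 0.263), a factor of limb development, and PRKAR1A (-0.15 ± 0.049, below it in 8 of 8, limma adjusted p = 0.283), a regulatory subunit of protein kinase A, which phosphorylates GLI factors.

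After low temperature during ED10–13 (L13), GLI2 ran from 10.21 over 10.39 to 10.51, with 7 of 8 embryos above the C13 mean of 10.25. The difference of 0.14 (interval 0.025 to 0.25) had an exact permutation p of 0.0182 by itself and did not pass the adjustment over all probe sets (limma adjusted p = 0.565, with 0.0193% of all probe sets called). GLI3 (0.059), SMO (-0.0042) and PTCH1 (-0.0086) had intervals that include 0. IFT122 (0.25 ± 0.094, limma adjusted p = 0.525) and GPR161 (0.25 ± 0.098, limma adjusted p = 0.557), a cilium receptor that restrains the pathway, came nearest among the other pathway genes. The change of the low temperature effect between windows was 0.19 for GLI2 (interval 0.030 to 0.35, limma adjusted p = 1.0). Each of the other members had an interval of this change that includes 0.

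**Figure D3:**
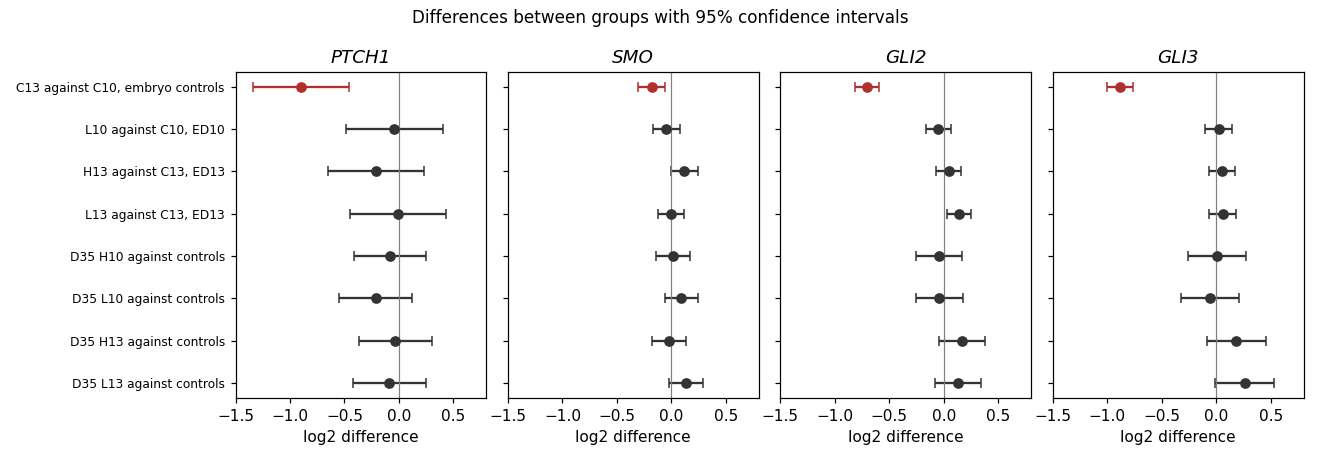
Log2 differences of PTCH1, SMO, GLI2 and GLI3 (x axis, treated minus control or C13 minus C10) with 95% confidence intervals for 8 comparisons, with red marking an adjusted p under 0.05. The 4 red points are the differences between C13 and C10, and the intervals of PTCH1 are the widest among embryos.

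At D35 no member was called in any of the 4 comparisons with the controls, and no other gene of the pathway list. By limma's adjusted p, no probe set was called for H10 or L10, 0.00483% for H13 and 0.0145% for L13. Before adjustment, 2.83%, 6.29%, 3.91% and 12.7% of the probe sets reached 0.05 in these 4 comparisons. The controls enter all of them.

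GLI3 ran from 7.42 over 7.97 to 8.19 in the controls, from 7.44 over 8.04 to 8.24 in H10, from 7.20 over 7.86 to 8.29 in L10, from 7.85 over 8.11 to 8.44 in H13, and from 7.94 over 8.09 to 8.52 in L13. All 5 groups overlapped. All 8 L13 chickens lay above the control mean of 7.93, by 0.26 on average (interval -0.0089 to 0.53, limma adjusted p = 0.414, exact permutation p = 0.0438 by itself). Without control chicken 30, flagged below at 7.42, the difference was 0.19, and not all L13 chickens lay above the control mean. Against the controls of their own number series this difference of GLI3 was 0.10. L13 was also above L10, by 0.32 (interval 0.049 to 0.59, limma adjusted p = 0.592, with 0% of all probe sets called), and neither difference passed the adjustment. Between L13 and L10 only 34.8% of all probe sets lay below 0, with a median of 0.068, and 50.6% after quantile normalization. The GLI3 difference there was 0.21 to 0.32 under the alternatives other than leaving out an array. GLI2 was at 0.21 between H13 and H10 (interval -0.0012 to 0.43), a comparison with 0.00483% of all probe sets called.

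GLI2 in H10 (-0.045) and L10 (-0.041) and in H13 (0.17) and L13 (0.13) had intervals that include 0 and ran from -0.26 to 0.38 over the 4 groups. Against the controls of the own number series GLI2 was at 0.074 in H10, -0.16 in L10, 0.29 in H13 and 0.012 in L13. PTCH1 differed by -0.22 to -0.033, with intervals from -0.55 to 0.30. SMO, the member measured above the background level at D35, differed by -0.019 to 0.13, with intervals from -0.17 to 0.29. Among the other pathway genes SFRP1 came nearest to the threshold in L13 (-0.36 ± 0.11, below the control mean in 8 of 8 chickens, limma adjusted p = 0.177), followed by NKX3-2 (-0.35 ± 0.11, 7 of 8, limma adjusted p = 0.184). SFRP1 was also at -0.32 in L10 (limma adjusted p = 0.762) and at -0.24 in H13 (limma adjusted p = 1.0), all against the same controls.

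**Figure D4:**
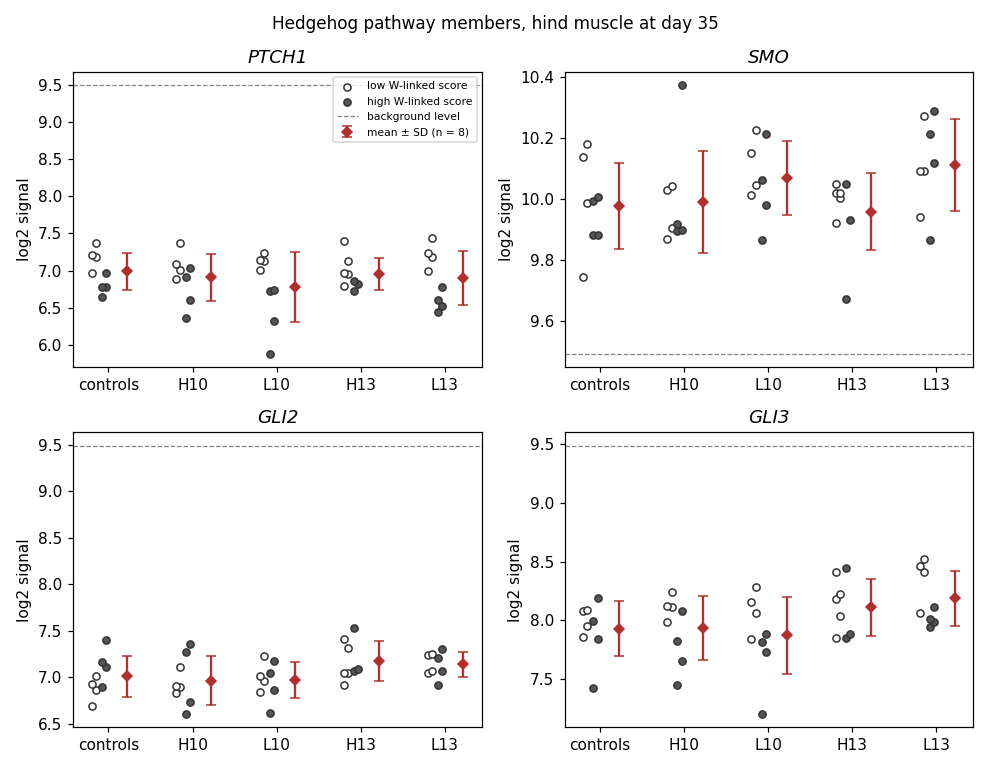
Log2 signal of the 4 members in hind muscle at D35 by group (x axis), with circles for single chickens, filled where the W-linked score is high, red diamonds with bars for the mean ± SD of 8 chickens and a dashed line at the background level of 9.49. All groups overlap, and in PTCH1 the filled circles lie low within every group.

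PTCH1 differed between animals along the W chromosome, which in birds is carried by females, whereas males have a second copy of Z. A W-linked score, the mean of 18 W-linked probe sets of an array, split the embryos into 23 high and 25 low arrays with none between -1.54 and 1.92, and the D35 chickens into 19 and 21. Every group held 3 or 4 high arrays. In embryos PTCH1 ran from 7.95 over 8.59 to 9.77 in high arrays and from 8.32 over 9.39 to 10.28 in low arrays. At D35 it ran from 5.88 over 6.73 to 7.03 in high arrays and from 6.80 over 7.14 to 7.44 in low arrays, so the overlap was narrow.

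Within groups PTCH1 fell by 0.12 per unit of the score in embryos (coefficient -0.12 ± 0.022, limma adjusted p = 9.13e-05) and by 0.11 at D35 (coefficient -0.11 ± 0.019, limma adjusted p = 4.77e-05). Of all probe sets 3.07% were called with the score in embryos and 2.95% at D35, 2.61% and 2.31% falling with it. Among probe sets on Z 61.1% were called in embryos and 51.2% at D35, against 1.42% and 1.57% of those placed on neither Z nor W. The latter include probe sets that were given no chromosome. The median coefficient on Z was -0.069 and -0.079. PTCH1 fell more per unit than this median in both stages, but the median also covers the Z probe sets that were not called. The difference was not tested.

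In H10 the 4 embryos with a high score had PTCH1 between 7.95 and 8.92 and the 4 with a low score between 9.44 and 9.81. In C10 these ranges were 9.07 to 9.77 and 9.48 to 10.11. The low H10 values of PTCH1 were thus those of the high-score embryos, whose range lay below that of the high-score C10 embryos. As 4 embryos stand on each side and the contrast chose the members, no test was made. The embryo coefficients of GLI3 (-0.017, limma adjusted p = 0.621), GLI2 (-0.0033) and SMO (-0.0022) did not pass the threshold.

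At D35 GLI3, though on chromosome 2, fell with the score (coefficient -0.067 ± 0.019, limma adjusted p = 0.0381). It ran from 7.20 over 7.88 to 8.44 in high arrays and from 7.84 over 8.11 to 8.52 in low arrays, which overlapped. GLI2 (0.017) and SMO (-0.0064) did not pass the threshold at D35.

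PTCH1 also moved with epidermis markers in embryos. Per unit of the epidermis marker mean it rose by 0.25 within groups (coefficient 0.25 ± 0.046, limma adjusted p = 5.69e-05), and 17.8% of all probe sets were called with this mean. SMO had a coefficient of -0.041 ± 0.015 (limma adjusted p = 0.0508), and GLI3 (0.020) and GLI2 (0.0084) did not pass the threshold either. The cartilage marker mean was past the threshold with no member, as with 1.47% of all probe sets. At D35 neither marker mean was past the threshold with a member (0.782% and 0.0241% of all probe sets called).

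**Figure D5:**
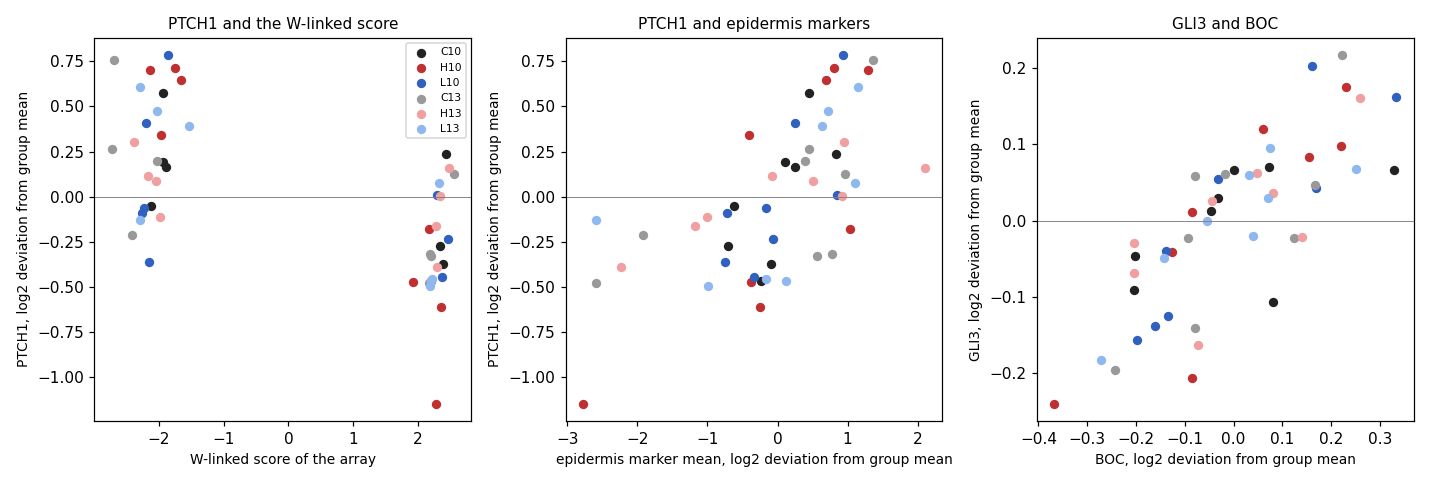
Log2 deviations from the group means in 48 embryos coloured by group, PTCH1 (y axis) against the W-linked score (left) and the epidermis marker mean (middle), and GLI3 (y axis) against BOC (right). PTCH1 is lower at high scores and at low epidermis means, the lowest point being H10 embryo 9, and GLI3 and BOC deviate together with r = 0.78.

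Between embryos of the same group the members varied together in part. Over 48 embryos the deviations of GLI3 from its group means correlated with those of PTCH1 (Pearson r = 0.61, permutation p = 3e-05, adjusted 0.00036, Spearman rho = 0.52, permutation p = 0.00067, adjusted 0.00258), and r was 0.53 without the 2 embryos farthest from the median of GLI3. GLI3 also correlated with GLI2 (r = 0.54, permutation p = 0.00029, adjusted 0.00116, rho = 0.49, permutation p = 0.00086, adjusted 0.00258, r = 0.52 without the 2 farthest). GLI2 correlated with SMO (r = 0.49, permutation p = 0.00052, adjusted 0.00156, rho = 0.56, permutation p = 7e-05, adjusted 0.00042, r = 0.46 without the 2 farthest). In all, 12 correlations were computed, 6 per stage, and p-values were adjusted over the 12. Among 11527 other genes the median r with GLI3 was 0.16 and the 95th percentile 0.51, so positive correlations were common and the arrays share their normalization. The r of GLI3 with PTCH1 and with GLI2 lay above this percentile, GLI2 at rank 398. The r of GLI2 and SMO lay above the 95th percentiles for GLI2 (0.46) and for SMO (0.36).

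For GLI3 and SMO r was 0.38 (permutation p = 0.00622, adjusted 0.0136, rho = 0.44, permutation p = 0.00269, adjusted 0.00646, r = 0.36 without the 2 farthest). For GLI2 and PTCH1 it was 0.35 (permutation p = 0.0274, adjusted 0.0469, rho = 0.30, permutation p = 0.0496, adjusted 0.0744), and it did not hold in rank or after quantile normalization (r = 0.14). For PTCH1 and SMO it was -0.097 (permutation p = 0.509, adjusted 0.610, rho = -0.040, permutation p = 0.797, adjusted 0.869). By r with GLI3, SMO had rank 1967 of 11527 genes, under the 95th percentile of 0.51. By r with SMO, GLI3 had rank 468, above the percentile of 0.36. By r with GLI2, PTCH1 had rank 1813, under the percentile of 0.46, and by r with PTCH1, GLI2 had rank 3580. The permutation p-values test against no correlation and not against the other genes. With the W-linked score taken out GLI3 and PTCH1 still had r = 0.55, and with the epidermis mean taken out r = 0.65.

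At D35, over 40 chickens, GLI3 correlated with PTCH1 (r = 0.63, permutation p = 0.0001, adjusted 0.0006, rho = 0.64, permutation p = 3e-05, adjusted 0.00036, r = 0.59 without the 2 farthest) and with GLI2 (r = 0.45, permutation p = 0.00678, adjusted 0.0136, rho = 0.45, permutation p = 0.00565, adjusted 0.0113, r = 0.44 without the 2 farthest). With the W-linked score taken out the values were 0.43 and 0.64. Over all genes the median r with GLI3 at D35 was 0.22 and the 95th percentile 0.66, above both correlations, so PTCH1 had rank 764 and GLI2 rank 2911 of 11527. The correlation of GLI3 with GLI2 was 0.15 after quantile normalization and no longer passed the threshold. The other 4 pairs at D35 did not pass it, and their r lay between -0.0061 and 0.35.

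By the Pearson r of deviations from group means, the 5 genes most like GLI3 in embryos were TENM4 (r = 0.81), NOC4L (0.80), BOC (0.78), RAVER2 (0.78) and RTCB (0.77). BOC, the Hedgehog co-receptor, thus had rank 3 among 11527 genes. BOC ran from 10.29 over 10.64 to 10.89 in H10, from 10.76 over 10.95 to 11.29 in C10, from 10.79 over 10.90 to 11.32 in L10, and from 9.89 over 10.08 to 10.35 in C13. As for GLI3, C13 did not overlap C10, which held for 8.29% of all probe sets. H10 lay low among the ED10 groups but overlapped C10. BOC was picked by its likeness to GLI3, which was chosen through H10, so nothing is read from its H10 values. Of the 50 other genes of the pathway list and members, 10 had an r with GLI3 above the 95th percentile of all genes, among them IFT122 (0.68), DISP1 (0.60), SFRP1 (0.59), OSR1 (0.55) and GLI1 (0.53), and the median of the 50 was 0.29. The number was 3 of 50 for GLI2, 5 for PTCH1 and 6 for SMO, each by its own percentile. For SMO the median of the 50 was -0.093, against -0.057 over all genes. These are descriptions over 48 arrays that share 6 group means.

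The 5 genes most like GLI2 in embryos were DCTN4, DHX33, GPAT4, AHCYL1 and TMEM39B, with r of 0.68 to 0.69, and those most like SMO were PCBP2, CHPF, GLG1, H1FX and NT5M, with 0.65 to 0.68. The 5 most like PTCH1 were SSBP2, HSD17B4, ST8SIA5, TNFAIP8 and COMMD10, with 0.88 to 0.91, all on chromosome Z. Of the 100 genes most like PTCH1, 86 lay on Z in embryos and 97 at D35, where 4.47% of the genes lie on Z. Of the other pathway genes and members DISP1 (0.78), HHIP (0.74), IFT122 (0.64), GLI3 (0.61) and GLI1 (0.61) were above the 95th percentile of all genes for PTCH1, 0.61.

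At D35 the 3 genes most like GLI3 were DLC1 (0.85), MAP3K1 (0.84) and CDC14B (0.84), the last 2 on Z, and 36 of its 100 most similar genes lay on Z against 4 in embryos. The 3 most like PTCH1, UGCG, TMEM175 and FOCAD (0.89 to 0.90), were on Z as well. Those most like GLI2 were CPPED1, CLMP and MAN1C1 (0.76 to 0.81), and those most like SMO were C1orf43, THRA and PRKAB2 (0.67 to 0.68). EVC2, a cilium protein that passes the signal of SMO on to the GLI factors, had the highest r of the pathway genes with GLI3 at D35 (0.74, rank 109 of 11527) and was the 1 of 50 pathway genes and members above the 95th percentile of all genes, 0.66. The number at D35 was 7 of 50 for GLI2, 2 for PTCH1 and 1 for SMO, each by its own percentile.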

How the data were processed

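Total RNA of hind muscle had been hybridised by the authors to Affymetrix chicken gene arrays, and log2 signals per probe set were deposited. Per the submitters' processing notes GCOS 1.1.1 was used. How these arrays were normalized, and on which genome build, is not given in the sources used here. The logarithm's base is not stated either and was taken as 2. The log2 values stand in a pair of deposited tables, between which the largest difference was 0, and 0 pairs of arrays were identical. Genes were named from the array annotation. Depth does not apply to arrays, whose number limits the precision.

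With limma 3.58.1 in R 4.3.3 a mean per group was fitted over the 48 embryo arrays and, separately, the 40 D35 arrays, without a filter on level. The study's microRNA model at D35 had slaughter weight as a covariate. The labels do not give this weight, so it is not in the fit. The 98 control probe sets were left out. After eBayes moderation, p-values of each comparison were adjusted over 20706 probe sets by Benjamini-Hochberg, at a threshold of 0.05. Of these, 12300 had 1 symbol, 256 several and 8150 none. The p-values measure the spread between arrays of 1 animal each. The script was tested on simulated data. Exact two-sided permutation tests took all 12870 splits of 8 against 8 arrays, and correlations 100000 permutations within groups. Python 3.11.15, numpy 2.4.6, scipy 1.17.1 and matplotlib 3.10.9 were used.

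Members and gene lists were chosen with earlier results of these data known. Genes named are the members, the pathway genes called (at most the 6 of largest difference each way between C13 and C10, otherwise the 2 of smallest adjusted p, where the text names any), the genes most like each member and the 2 highest markers of a list used. DISP1, LRP2, IFT122, HHIP, HOXD13, OSR1 and EVC2 were named after their values were seen. Where a gene has several probe sets, that of the highest mean stands for it. Alternatives were quantile normalization, median centring, trend and robust eBayes, the 2 groups alone, other controls, covariates, leaving out dim probe sets and leaving out each array. The model with the W-linked score and the epidermis mean together, and correlations with the W-linked score taken out, were added after seeing the data.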

Additional observations from a re-analysis of the deposited data

Results flagged for a closer look

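In 44 sets of 8 arrays, 1 for each member in each group, 4 values stood apart from the rest of their group by Dixon's criterion, which chance meets in about 1 of 20 groups. GLI3 of D35 control chicken 30 was 7.42, with the next control at 7.84. SMO of C10 embryo 65 was 11.21, with the next embryo at 10.98. Without this embryo the difference of SMO between C13 and C10 was -0.14 in place of -0.18 and no longer past the threshold. SMO of D35 H10 chicken 11 was 10.37, with the next at 10.04, and SMO of D35 H13 chicken 34 was 9.67, with the next at 9.92. Differences between windows were tested for low temperature in embryos and for both temperatures at D35, and in these no member was past the threshold by limma's adjusted p.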

How the results depend on the processing

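Over the tested comparisons, which leave out H10 against C10, 421 log2 differences of members were computed under alternatives other than leaving out an array. Of these, 394 kept direction and side of the threshold, 23 changed sign and 4 fell short of the threshold. The cause was not tested for any. GLI3 and GLI2 stayed lower in C13 than in C10 in every alternative run (GLI3 -0.96 to -0.81, GLI2 -0.74 to -0.69). SMO was no longer called there after median centring (-0.18), with the 2 groups alone (-0.18) or in the first number series (-0.11), nor PTCH1 in that series (-0.88), which left 2 members called. Leaving out 1 array left 3 to 4 called. With dim probe sets left out, 13 of the 17 remaining pathway genes were called there, against 27 of 51, while the share of all probe sets called rose from 28.2% to 50.3%. In H10 against C10 the call of GLI3 is what chose the members and is no test. The count of 1 was 0 under median centring, either marker mean, the 2 groups alone or own-series controls, and 0 to 1 with 1 array left out. With dim probe sets left out, 2 pathway genes were called there against 1 (1.85% of all probe sets against 0.13%). SMO changed sign there with own-series controls (0.0045).

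All other changes of sign in differences concern differences that are not past the threshold. With the epidermis mean as covariate PTCH1 was 0.044 in L10, 0.068 in H13, 0.0045 in L13 and -0.040 in the change between windows, and GLI3 was -0.0043 in D35 H10. With the W-linked score PTCH1 was 0.015 in L13 and GLI3 -0.00076 in D35 H10, and with both covariates PTCH1 was 0.068 in H13 and 0.025 in L13, and GLI3 -0.0063 in D35 H10. With own-series controls GLI3 was -0.022 in H13, PTCH1 0.038 and SMO 0.010 in L13, GLI2 0.074 and PTCH1 0.012 in D35 H10, and PTCH1 0.061 and SMO 0.025 in D35 H13. Median centring gave GLI3 -0.011 in L10 and SMO -0.039 between D35 L13 and L10, where quantile normalization gave -0.021. With the C13 chickens alone as controls GLI3 was -0.091 and SMO -0.019 in D35 H10, and with the cartilage mean GLI2 was 0.0043 in D35 L10. The correlation of PTCH1 and SMO in embryos was 0.23 with the epidermis mean taken out. At D35 that of GLI2 and PTCH1 was -0.15 after quantile normalization and that of GLI2 and SMO -0.19, or -0.025 with the epidermis mean taken out. With the W-linked score taken out GLI2 and PTCH1 (0.41) and PTCH1 and SMO (0.41) passed the threshold at D35.

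Leaving out 1 array turned the sign of small differences. The ranges were -0.0073 to 0.044 for GLI3 and -0.15 to 0.040 for PTCH1 in L10, -0.095 to 0.099 for PTCH1 and -0.038 to 0.025 for SMO in L13, and -0.053 to 0.15 for PTCH1 in the change between windows. At D35 they were -0.067 to 0.075 for GLI3, -0.10 to 0.010 for GLI2 and -0.040 to 0.044 for SMO in H10, -0.13 to 0.038 for GLI3 and -0.087 to 0.014 for GLI2 in L10, -0.095 to 0.022 for PTCH1 and -0.052 to 0.022 for SMO in H13, -0.029 to 0.12 for PTCH1 and -0.051 to 0.021 for SMO between H13 and H10, and -0.00066 to 0.19 for PTCH1 between L13 and L10.

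No paired analysis was possible because the groups compared share no animal number. Other probe sets of a member could not be tried, as each has 1, and leaving out dim probe sets removes PTCH1 in embryos and all members but SMO at D35. A mean signal below the background level limits the values of PTCH1 in both stages and of GLI2 and GLI3 at D35. Some ED10 embryos had PTCH1 above that level, up to 10.11 in C10, 9.81 in H10 and 10.28 in L10.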
